A study of Mus musculus with 6 samples.

Results

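Hlx and 9 relatives from the NKL class of homeobox genes were followed through 6 expression arrays of mouse bone marrow cells. The members are Hlx, Hhex, Nkx2-3, Msx1, Msx2, Tlx1, Dlx1, Emx1, Lbx1 and Barx1, chosen by symbol in the array annotation. All 10 had 1 probeset with a single gene symbol, out of 19938 genes measured in that way. The tested cells carried a lentivirus with mouse HLX and GFP, and the control cells a lentivirus with GFP alone. There were 3 arrays per vector, numbered 1 to 3 in the labels. Both groups came from young adult wild-type FVB/nJ marrow sorted as Lin-Kit+Sca-1+ cells, a fraction that holds stem cells and early progenitors. They were grown with serum, stem cell factor and the mouse interleukins IL-6 and IL-3, exposed to virus with 8 µg/ml polybrene and sorted again for GFP after 2 days. RNA came from 5000 to 10000 sorted cells, and 3 ng was amplified. The vector is written pCAD-HLX-IRES-GFP in the sample labels and pCAD-IRES-GFP-Hlx in the series' design text. No label ties the numbers to separate mice or cultures. The p-values therefore reflect only how these samples varied, and some of that spread may be technical.

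Homeobox genes encode transcription factors that bind DNA through a homeodomain, often at sites with a TAAT core. Genes of the NKL class are known mainly from the embryo, where they pattern gut, liver, spleen, muscle, limb, face and brain. In blood cells Hlx and Hhex are among the best known. Many NKL proteins can carry a short motif that recruits the Groucho/TLE corepressors and so represses target genes.

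The sequences upstream of Hlx and Hhex are shown because these were the members whose arrays separated the vectors. The signal of Hlx may come from the insert as well as from the gene's own promoter, which was not analysed here. They are the 250 bases before the transcription start in RefSeq (build GRCm38.p6), on the minus strand at chr1:184732494-184732743 for Hlx and on the plus strand at chr19:37434591-37434840 for Hhex. Capitals mark TAAT or its reverse complement ATTA, so both strands were searched.
Hlx: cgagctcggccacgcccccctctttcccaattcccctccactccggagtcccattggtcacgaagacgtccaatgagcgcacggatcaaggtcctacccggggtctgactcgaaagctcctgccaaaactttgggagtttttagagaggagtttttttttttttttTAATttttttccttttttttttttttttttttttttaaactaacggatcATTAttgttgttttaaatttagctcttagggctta
Hhex: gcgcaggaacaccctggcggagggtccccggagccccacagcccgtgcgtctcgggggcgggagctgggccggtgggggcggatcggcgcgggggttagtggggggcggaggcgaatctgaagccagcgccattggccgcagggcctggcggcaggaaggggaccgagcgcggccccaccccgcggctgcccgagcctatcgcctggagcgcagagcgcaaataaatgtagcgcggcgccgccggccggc
The Hlx window held 2 cores and had a GC content of 41.6%, while the Hhex window held 0 cores at a GC content of 76.0%. Of all 32841 promoter windows of this length 54.9% held at least 1 core, and their median GC content was 52.4%. Of the 9 members with a window, all but Lbx1, 3 held a core, which were Hlx, Msx1 with 1 and Msx2 with 5. The median GC content of the 9 windows was 68.0%. A match is a description of these letters and not a binding site.

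The deposited values are log2 expression levels, and a difference of 1 on this scale is a 2-fold difference. Median levels of the arrays over all genes lay between 6.50 and 6.62, and array pairs correlated at 0.980 to 0.987 across genes. With limma, 0 of 19938 genes (0%) and so 0 of the 10 members passed an adjusted p of 0.05. At an unadjusted p under 0.05 stood 958 genes (4.80%) and 2 members, Hlx and Hhex. The sorted cell type was checked on its markers. Kit, the receptor used in the sort, was at 9.59, 9.58 and 9.31 with the HLX vector and at 9.20, 9.50 and 9.53 with the control vector. Of 13 measured progenitor markers 12 lay above the median gene in control arrays, with Cd34 highest at a mean of 11.21, and Sca-1 was not analysed here. Of 10 measured lineage markers that the sort selects against, 0 did so in control arrays. In HLX arrays Itgam of this list had a mean of 6.96, above the median gene there (6.56). Of 11 stromal and endothelial markers 3 lay above the median gene in control arrays, the collagen genes Col1a1, Col1a2 and Col3a1.

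Hlx, the gene carried by the vector, had the widest difference between vectors of any gene tested. Its log2 levels were 10.75, 9.74 and 10.28 in HLX arrays 1 to 3, against 6.99, 7.29 and 7.62 in control arrays 1 to 3. The groups did not overlap, and even the lowest HLX array lay 2.12 log2 units above the highest control array. The 9 differences between single HLX and single control arrays ran from 2.12 to 3.76. The mean difference was 2.95 ± 0.27 (SE, n = 3 per group), or 7.75-fold, with an adjusted p from limma of 0.0782 and an exact permutation p of 0.1, which is the lowest value possible with 3 arrays in each group. By unadjusted p from limma Hlx was not first, at 7.85e-06 against a lowest value of 6.82e-06 over all genes. When the variance prior was trended and robust, the adjusted p of Hlx from limma was 0.0377.

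Among all genes, Hlx stood above 97.5%, 93.2% and 96.4% of genes in HLX arrays 1 to 3, against 59.6%, 65.5% and 70.6% in control arrays 1 to 3. These ranks compare the brightness of probesets, which also depends on the probes, so they are not transcript amounts. In the control arrays the mean level of Hlx, 7.30 ± 0.32 (SD, n = 3), was above that of 99.6% of 1228 chemosensory receptor genes, which are normally read in sensory cells. Hlx varied more between arrays of the same vector than most genes, with a pooled SD of 0.42 that exceeded that of 95.1% of genes. Where the probes lie relative to the insert was not analysed here, so vector-derived and endogenous Hlx cannot be told apart. The measured neighbours of Hlx in the RefSeq gene order were Dusp10, a phosphatase of MAP kinases, at a difference of 0.04 ± 0.51 (SE, n = 3 per group), and Mtarc1 at 0.03 ± 0.10.

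**Figure D1:**
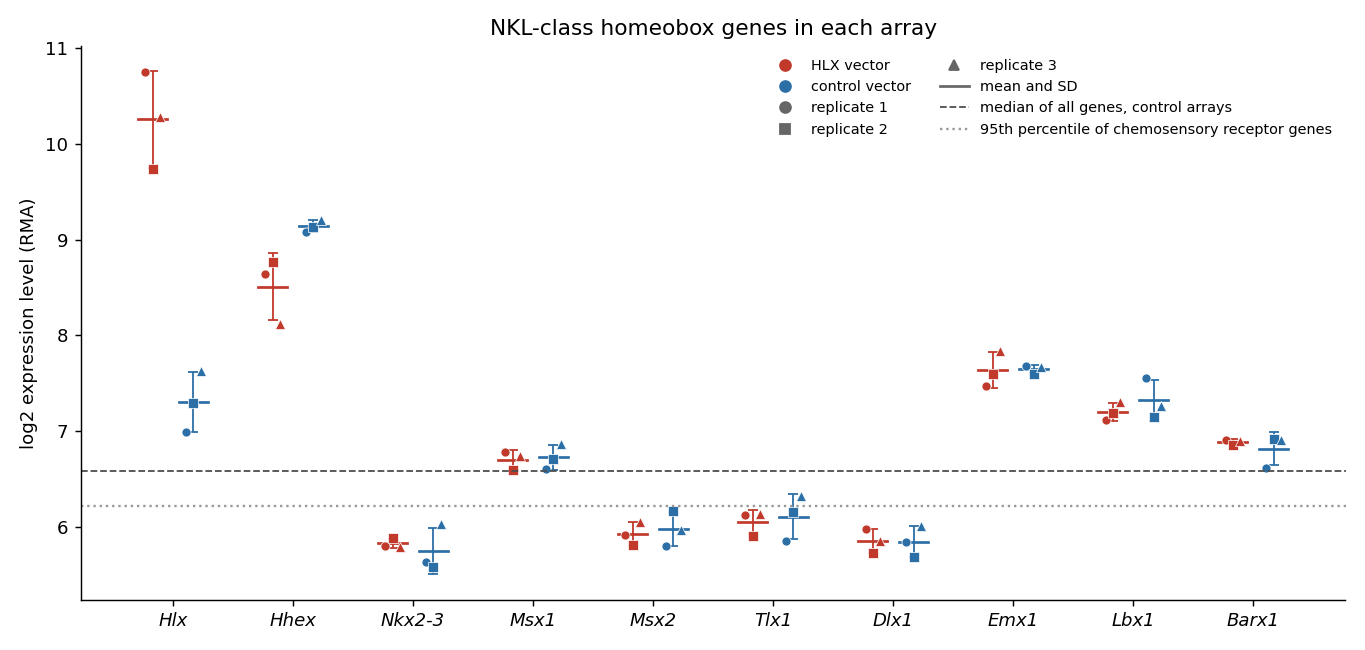
Log2 expression level (RMA) of the 10 NKL-class members in each array, with HLX vector arrays in red to the left of control vector arrays in blue and replicates 1 to 3 as circles, squares and triangles. Bars give the mean and SD of 3 arrays, the dashed line is the median of all genes in control arrays (6.58) and the dotted line the 95th percentile of chemosensory receptor genes (6.22). The HLX and control arrays are apart for Hlx and Hhex and overlap for the other 8 genes.

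Hhex, a regulator of early endoderm, liver and blood progenitors that is needed for lymphoid development, was lower with the HLX vector in every array. Its log2 levels were 8.64, 8.77 and 8.12 in HLX arrays 1 to 3, against 9.08, 9.14 and 9.21 in control arrays 1 to 3. The highest HLX array was 0.31 log2 units below the lowest control array, and the 9 single-array differences ran from -1.09 to -0.31. The mean difference was -0.63 ± 0.17 (SE, n = 3 per group; 95% interval -1.03 to -0.23), which puts Hhex 1.55-fold lower with HLX. It did not pass the threshold over all genes (adjusted p from limma 0.901), and the exact permutation p was 0.1. At an unadjusted p of 0.00723 from limma it was among the 209 genes (1.05%) under 0.01. Differences at least this far below 0 were found in 94 of 19938 genes (0.471%), and a gap between groups at least this wide in the same direction in 24 genes.

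Hhex was the brightest member in control arrays, above 89.6% of all genes and above all 1228 chemosensory receptor genes by its mean. In HLX arrays it stood above 82.8% of genes. Its control arrays lay close together (9.14 ± 0.06, SD, n = 3) and its HLX arrays were more spread (8.51 ± 0.35), with HLX replicate 3 lowest. Without that array the difference was -0.44. Among the HLX arrays, Hlx was highest in replicate 1 and lowest in replicate 2, while Hhex was highest in replicate 2 and lowest in replicate 3. A relation between the levels of Hlx and Hhex across arrays was not tested. The genes beside Hhex were Kif11, a mitotic kinesin, at 0.14 ± 0.11 (SE, n = 3 per group), and Exoc6, an exocyst subunit, at -0.25 ± 0.14, and both overlapped between vectors.

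Markers of other cell types and states were read beside Hhex, and their part in its lower values was not tested. Of the 13 measured progenitor markers 11 were lower with HLX, as were 10467 of all 19938 genes, and 3 of the 13 were lower without overlap, where 4.85% of all genes were. Their median level was 9.45, 9.08 and 9.31 in HLX arrays, against 9.25, 9.22 and 9.29 in control arrays, and these ranges overlap. Flt3, a receptor of multipotent and lymphoid progenitors, was at 8.81, 8.57 and 8.19 with HLX, against 9.12, 9.21 and 9.29 with control, a difference of -0.68 ± 0.16. Myb, a transcription factor of proliferating progenitors, differed by -0.54 ± 0.09. Among 10 lineage markers, whose median level was 4.78 to 5.01 in HLX arrays and 4.88 to 5.06 in control arrays, 3 were higher with HLX and 7 lower. Without overlap 1 of the 10 was higher, where 4.34% of all genes were, and 3 were lower, where 4.85% were. Among the 3 lower were the natural killer receptor gene Klrb1c at -0.20 ± 0.10 and the T cell gene Cd8a at -0.12 ± 0.09. Klrb1c was dim, at a mean of 3.92 with HLX and 4.12 with control, below the median of the chemosensory receptor genes. The one higher was the myeloid integrin gene Itgam, at 7.24, 6.91 and 6.72 with HLX, against 6.49, 5.72 and 5.99 with control. No marker passed an adjusted p of 0.05. Because bulk RNA was measured, fewer cells of a type and less RNA per cell cannot be told apart.

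Interferon response genes varied between arrays of the same vector. The median level of 17 such genes was 7.52, 6.73 and 6.61 in HLX arrays 1 to 3, against 7.60, 6.64 and 7.19 in control arrays 1 to 3. Replicate 1 was highest in both groups, by a wide margin among HLX arrays, while control replicate 3 lay between the other control arrays. Without both arrays numbered 1 the difference of Hlx was 2.55 (adjusted p from limma 0.211) and that of Hhex -0.73 (0.871).

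Nkx2-3 and Tlx1 are both needed for normal development of the spleen, and TLX1 is also known as an oncogene of T cell leukaemia. Nkx2-3 was at 5.80, 5.88 and 5.79 in HLX arrays, against 5.63, 5.58 and 6.03 in control arrays. HLX was higher in 6 of its 9 array pairs, and the difference was 0.08 ± 0.14 (SE, n = 3 per group). Tlx1 was at 6.12, 5.91 and 6.13 in HLX arrays, against 5.85, 6.15 and 6.32 in control arrays. It differed by -0.05 ± 0.14, with HLX higher in 3 of 9 pairs. Both lay below the median gene, at 31.5% and 37.1% of genes in HLX arrays and at 29.1% and 37.6% in control arrays.

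Msx1 and Msx2, effectors of BMP signalling in limb and face, also overlapped between vectors. Msx1 was at 6.78, 6.59 and 6.74 with HLX, against 6.60, 6.71 and 6.86 with control, a difference of -0.02 ± 0.11. Msx2 was at 5.91, 5.81 and 6.05 with HLX, against 5.80, 6.16 and 5.97 with control, a difference of -0.05 ± 0.12. The brain genes Dlx1, of forebrain interneurons, and Emx1, of the cerebral cortex, gave differences near 0 as well. Dlx1 was at 5.97, 5.73 and 5.85 with HLX, against 5.84, 5.69 and 6.01 with control, a difference of 0.01 ± 0.12. Emx1 was at 7.48, 7.60 and 7.84 with HLX, against 7.69, 7.60 and 7.67 with control, a difference of -0.01 ± 0.12. Neither pair of genes separated the vectors in any direction.

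Lbx1, a factor of migrating muscle precursors and spinal cord neurons, was at 7.12, 7.19 and 7.30 with HLX, against 7.55, 7.14 and 7.26 with control. Its difference of -0.12 ± 0.13 (SE, n = 3 per group) was the next in size after Hhex, and control replicate 1 alone lay above all HLX arrays. Barx1, a factor of stomach mesenchyme and teeth, was at 6.91, 6.86 and 6.90 with HLX, against 6.62, 6.92 and 6.91 with control, a difference of 0.07 ± 0.11. In Barx1 too, control replicate 1 stood apart from the other control arrays, on the low side.

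For the 8 members beside Hlx and Hhex the differences ran from -0.12 to 0.08, each within 1 pooled SD of 0. Their 95% intervals from limma reached from 0.748-fold for Lbx1 at the low end to 1.32-fold for Nkx2-3 at the high end. Differences beyond these bounds lay outside all 8 intervals. Each gene's own interval was narrower than this span, such as 0.824-fold to 1.17-fold for Msx1. None passed the adjusted threshold of limma. Of the 10 members 2 did not overlap between vectors, where 9.19% of all genes did not. Hlx was the 1 member higher without overlap, where 4.34% of all genes were, and Hhex the 1 member lower without overlap, where 4.85% of all genes were. Of the 9 members other than the vector's own gene 1 did not, a share of 11.1%. That share is near the background of all genes. Without control replicate 1 the groups did not overlap in 4 members, Hlx, Hhex, Tlx1 and Barx1, where 20.2% of all genes did not.

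**Figure D2:**
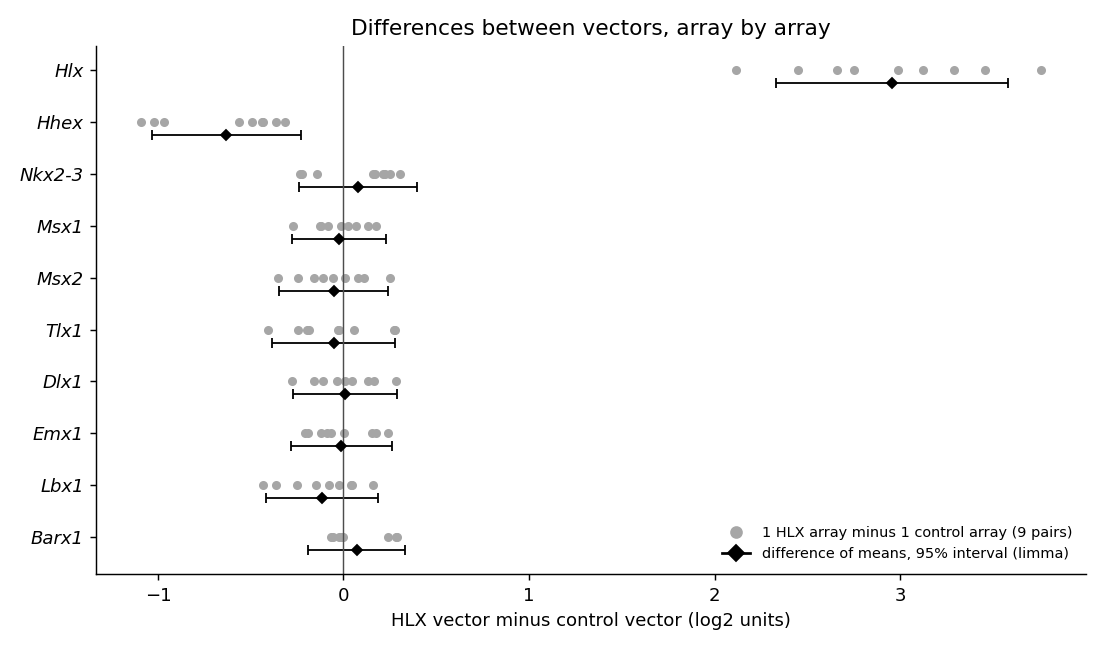
Differences between vectors (log2 units, HLX minus control) for the 10 members, with the 9 differences of a single HLX array and a single control array as grey points and the limma difference of means with its 95% interval as black diamonds and bars. All 9 points lie at 2.12 or above for Hlx and below 0 for Hhex, and they lie on both sides of 0 for the other 8 genes.

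By level, the members spread over a wide range in control arrays. Hhex was alone at the top at 9.14. Emx1 at 7.65 ± 0.05, Lbx1 at 7.32 ± 0.21 and Hlx at 7.30 ± 0.32 (SD, n = 3) followed, and Lbx1 and Hlx did not differ beyond their spread. Barx1 at 6.82 ± 0.17 and Msx1 at 6.73 ± 0.13 lay just above the median gene (6.58) and within each other's spread. Tlx1 at 6.11 ± 0.24, Msx2 at 5.98 ± 0.18, Dlx1 at 5.84 ± 0.16 and Nkx2-3 at 5.75 ± 0.24 lay below it, and neighbours in this order were within 1 SD of each other. In HLX arrays Hlx was the brightest member at 10.26 ± 0.50 and Hhex came next at 8.51 ± 0.35, while the order of the other 8 stayed Emx1, Lbx1, Barx1, Msx1, Tlx1, Msx2, Dlx1 and Nkx2-3.

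The low range met the range of chemosensory receptor genes, which were picked by symbol as a low reference without a detection call. Levels of the 1228 chemosensory receptor genes had a median of 4.49 and a 95th percentile of 6.22 in control arrays, and Tlx1, Msx2, Dlx1 and Nkx2-3 were under that percentile. The other 6 members were above it. Different probesets have different background brightness, so a level above that percentile does not by itself show a transcript.

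**Figure D3:**
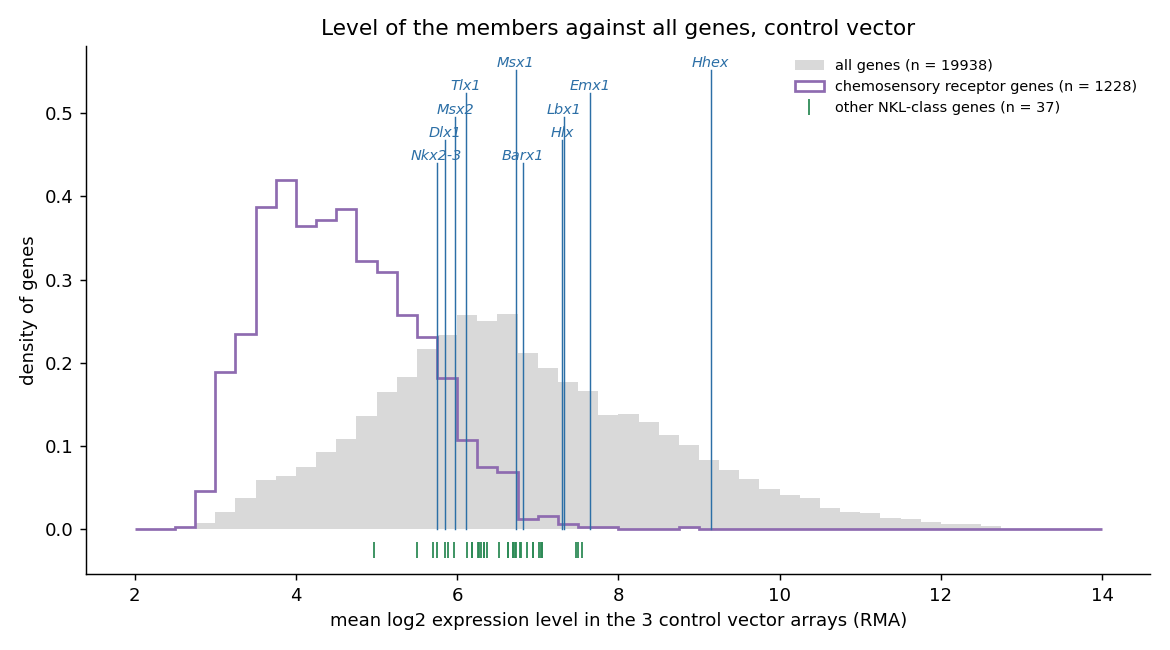
Distribution of the mean log2 expression level in the 3 control vector arrays for all 19938 genes (grey) and 1228 chemosensory receptor genes (purple outline), with vertical lines at the 10 members and green ticks at 37 other NKL-class genes. Hhex lies far to the right at 9.14, and the other members lie between 5.75 and 7.65, within or near the span of the green ticks.

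The rest of the NKL class was measured on the same arrays. Of 38 further NKL-class genes 37 had a probeset, with control levels from 4.97 to 7.54 and a median of 6.52, and 18 of them lay above the median gene. Their brightest genes in control arrays were Nkx6-2 and Hmx2, of the nervous system and inner ear, Nkx2-5, the heart factor, and Vax1, of the optic nerve. Nkx6-2 was at 7.59, 7.53 and 7.27 with HLX, against 7.72, 7.35 and 7.57 with control. Hmx2 was at 7.29, 7.42 and 7.68 with HLX, against 7.28, 7.71 and 7.52 with control. Neither of these separated the vectors. The control level of Hhex was above that of all 37.

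Between vectors the 37 genes differed by -0.17 to 0.15, with 17 above 0, 20 below 0 and a median of -0.0024, where the median of all genes was -0.0078. None was called by limma, and 0 were under an unadjusted p of 0.05. The groups did not overlap in 3 of the 37 (8.11%), near the 9.19% of all genes. These were Nkx2-2, of the ventral neural tube and pancreas, at -0.17 ± 0.09, Emx2, of cortex and urogenital tract, at 0.15 ± 0.09, and Dlx4 at 0.12 ± 0.09 (SE, n = 3 per group). Noto, of the notochord, at -0.09 ± 0.10, had the next smallest p and overlapped. Dlx2, beside Dlx1 in the gene order, differed by 0.04 ± 0.15, and Tlx1 and Lbx1 are themselves neighbours. Of 18 genes beside the 10 members 0 were called, and 1 had groups without overlap, where 9.19% of all genes did. It was the ubiquitin ligase subunit gene Btrc beside Lbx1, at -0.33 ± 0.12.

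**Figure D4:**
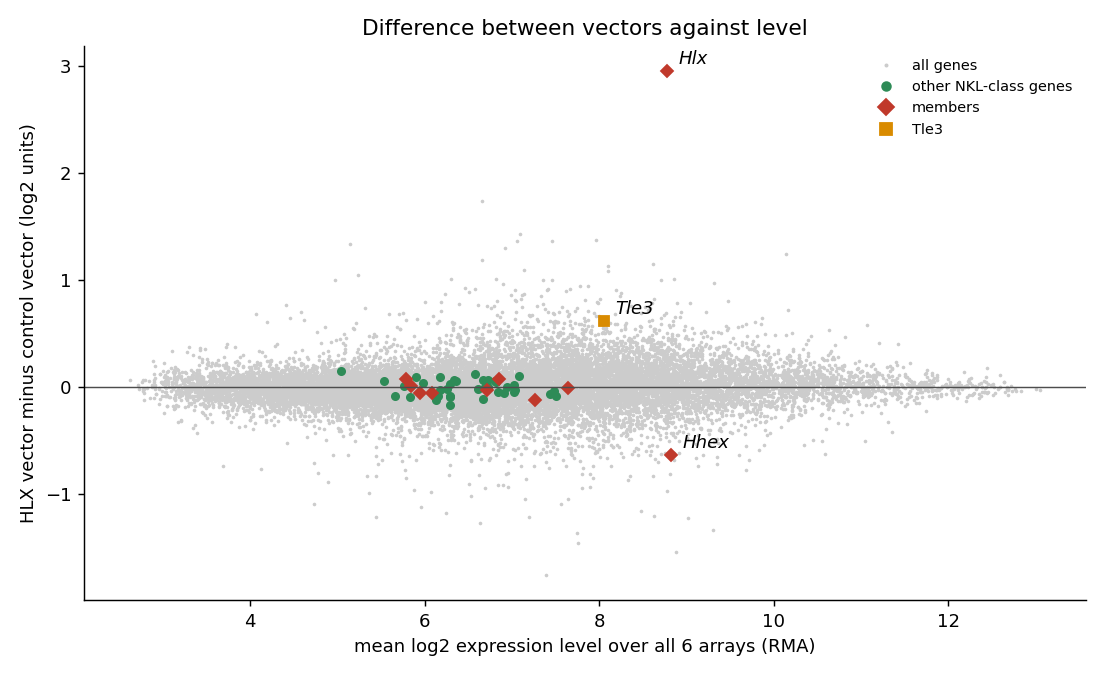
Difference between vectors (HLX minus control, log2 units) against the mean log2 expression level over all 6 arrays for all genes (grey), the 10 members (red diamonds), 37 other NKL-class genes (green) and Tle3 (orange square). Hlx lies alone at 2.95, Hhex at -0.63 and Tle3 at 0.62, and the other NKL-class genes lie within 0.17 of 0.

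The Groucho/TLE genes encode the corepressors that many NKL proteins can bind, and 6 of them were measured. Tle3 had the largest difference among them. Its log2 levels were 8.31, 8.39 and 8.39 in HLX arrays 1 to 3, against 7.55, 7.70 and 8.00 in control arrays 1 to 3. All HLX arrays were above all control arrays, by at least 0.31. The difference was 0.62 ± 0.13 (SE, n = 3 per group), a 1.53-fold higher level with HLX, and it did not pass the threshold (adjusted p from limma 0.839). Differences at least this far above 0 were found in 128 of 19938 genes (0.642%).

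Tle5, which encodes a short family member, was at 7.89, 7.72 and 8.23 with HLX, against 7.60, 7.71 and 7.79 with control, a difference of 0.25 ± 0.14 with overlap. Tle4 was at 7.47, 7.11 and 7.28 with HLX, against 7.63, 6.85 and 7.36 with control, and its difference was 0.00 ± 0.20. Tle1 differed by -0.15 ± 0.14, Tle2 by 0.11 ± 0.11 and Tle6 by -0.11 ± 0.13, and all 3 overlapped. In all, 4 of the 6 genes were above 0, as were 9471 of all 19938 genes, and their median was 0.05. The 1 of 6 without overlap was higher with HLX, where 4.34% of all genes were, and 0 were called.

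**Figure D5:**
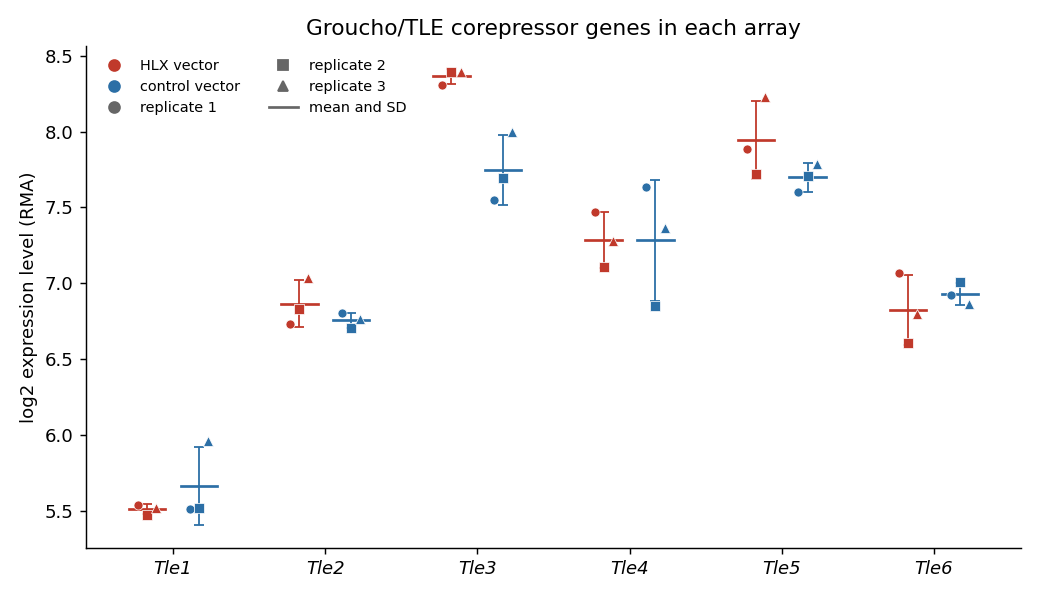
Log2 expression level (RMA) of 6 Groucho/TLE corepressor genes in each array, with HLX vector arrays in red to the left of control vector arrays in blue, replicates 1 to 3 as circles, squares and triangles, and bars for the mean and SD of 3 arrays. In Tle3 the HLX arrays lie at 8.31 to 8.39, above the control arrays at 7.55 to 8.00, and in the other 5 genes the arrays of the vectors overlap.

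In T helper 1 cells Hlx is known to act with T-bet, the product of Tbx21, to promote interferon gamma. Tbx21 was at 6.05, 6.02 and 6.20 with HLX, against 6.21, 6.26 and 6.13 with control, a difference of -0.11 ± 0.10 (SE, n = 3 per group). Ifng was at 6.24, 6.26 and 6.16 with HLX, against 6.39, 6.35 and 6.20 with control, a difference of -0.09 ± 0.10. Both overlapped and lay below the median gene. Of 10 measured T helper 1 genes 5 were above 0 and 5 below, with a median of -0.04. The smallest p were those of Il12rb2, a chain of the IL-12 receptor, at 0.57 ± 0.18, and Irf1, an interferon regulatory factor, at 0.45 ± 0.18. Neither overlapped between vectors and neither was called. They were the 2 of 10 genes without overlap, both higher with HLX, where 4.34% of all genes were.

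The array order of Hlx was compared with that of every other gene by counting how many of the 15 array pairs a gene ranks in the same direction as Hlx. All 15 pairs agreed in 27 of 19937 other genes (0.135%) and were opposite in 17. There are 720 possible orders of 6 arrays, of which 1 is 0.139%, so the count is near that of an arbitrary order and the named genes are a description only. Of the 27, the largest differences among named genes were in Tnf, the inflammatory cytokine, at 0.91 ± 0.21, the G protein subunit gene Gna11 at 0.69 ± 0.23 and the lectin receptor gene Clec4a4 at 0.65 ± 0.22. Foxj2, a forkhead factor, at 0.58 ± 0.15 and Hexim1, an inhibitor of the elongation kinase P-TEFb, at 0.56 ± 0.12 followed. All 5 were smaller than the 2.95 of Hlx, and 0 of the 27 differed by more than 1 log2 unit. Clec4a4 was dim, at a control mean of 4.13, and its HLX array 1 at 5.30 stood above arrays 2 and 3 at 4.49 and 4.55. For Gna11 the lowest HLX array was only 0.04 above the highest control array.

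For Hhex all 15 pairs agreed in 23 of 19937 genes (0.115%), also near the share of 1 order, and were opposite in 20. The largest differences were in Fcer1g, the signalling chain of Fc receptors, at -0.65 ± 0.18, the pore-forming macrophage gene Mpeg1 at -0.58 ± 0.19 and Dnajc6, a clathrin uncoating cofactor, at -0.57 ± 0.13. Plac8 at -0.50 ± 0.17 and the copine gene Cpne2 at -0.48 ± 0.16 followed. None of the 10 genes passed limma's threshold, and their adjusted p ran from 0.839 to 0.951.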

How the data were processed

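The authors deposited log2 levels for each probeset on each array, computed by RMA with Affymetrix Power Tools according to the submitters' processing notes. That the scale is log2 follows from the values, which span about the same range on every array. RMA subtracts background, normalizes arrays to each other and combines the probes of a probeset, which takes out shifts common to an array and compresses weak signals. No genome build for the probes is given in the sources used here.

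Of 35556 probesets 21789 had 1 gene symbol in the platform annotation, 1621 several and 12146 none. For each gene the one-symbol probeset with the highest mean over 6 arrays was kept, which left 19938 genes, and each of the 10 members had only 1. HLX minus control vector was fitted over all genes with limma 3.58.1 (lmFit and eBayes, R 4.3.3), 2-sided, with Benjamini-Hochberg adjustment at 0.05. SE is the moderated SE, on 4 residual and 3.32 prior degrees of freedom. The code was tested on simulated data. Exact permutation tests used scipy 1.17.1. The number of arrays limits the precision.

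The members and gene lists were chosen with earlier results of these data known. Genes outside the members were named by rule: the 4 smallest p and 4 brightest of the other NKL-class genes, all TLE genes, the 2 smallest p plus Tbx21 and Ifng of the T helper 1 list, the 2 smallest p and 3 brightest of each marker list, and the 5 genes most like Hlx and Hhex. Not all of these are printed. Kit, gene neighbours and promoter windows (RefSeq, GRCm38.p6) were added later. Whether replicate numbers pair the arrays was checked by deviations from the group means and was not settled, and the main fit was unpaired. Alternatives were other variance priors, array weights, normalizations, filters and probeset choices, the replicate number as a block, and fits without 1 array or without both arrays numbered 1.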

Additional observations from a re-analysis of the deposited data

How the results depend on the processing

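Hlx kept its direction in all 16 alternatives, with differences of 2.55 to 3.21. Its call changed in 1, the trended and robust variance prior, where the difference was 2.95 at an adjusted p from limma of 0.0377 and 1 gene was called over all genes. In the 6 fits without 1 array Hlx differed by 2.71 to 3.21 and its adjusted p ran from 0.0615 without HLX replicate 2 to 0.582 without control replicate 1. No other member and no other NKL-class gene was called in any alternative. Hhex was lower in all 16, by -0.76 to -0.44, and Tle3 higher in all 16, by 0.52 to 0.74. The other 8 members, not called, each changed sign in 1 to 5 alternatives, without moving by more than their spread, and 4 of them were too dim for the filter on dim genes. Members without overlap numbered 2 to 4 in the fits without 1 array, and 4 without control replicate 1 or without both arrays numbered 1, where 20.2% and 31.2% of all genes did not overlap, since fewer arrays leave less to overlap. That count uses no variance model, so the priors, array weights and the block do not bear on it.

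Deviations of same-numbered arrays correlated at 0.20, 0.01 and 0.14 for numbers 1, 2 and 3. The main fit did not pair the arrays, and whether the numbers pair them was not settled. With the replicate number as a block the Hlx difference was 2.95 at an adjusted p of 0.638, on 2 residual degrees of freedom, and 0 genes were called. HLX replicates 1 and 3 correlated best with the control array of their own number. HLX replicate 2 correlated best with control replicate 1, at 0.04 against 0.01 for its own number.

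The number of arrays limits the tests. A 2-sided exact permutation test of 3 against 3 arrays cannot go below 0.1. Dim members lie near the level of chemosensory receptor genes, where RMA compresses differences. Signal over background per probe was not analysed here.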
